A study of Mus musculus with 6 samples.

Results

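The 32 genes described here encode the SREBP regulators, the enzymes that make cholesterol and fatty acids, and 1 cholesterol carrier. They were chosen by name, as known SREBP-driven sterol and fatty acid synthesis genes, and were found among 53801 mouse gene rows by matching Ensembl identifiers to the symbols of the GENCODE M21 annotation (mouse build GRCm38). All 32 averaged 0.5 TPM or more over the 6 clones and entered the comparison across 17823 genes. The study used CRISPR/Cas9, a nuclease guided to a matching stretch of DNA, to disrupt *Snd1* in MIN6 cells, a mouse insulinoma line used as a model of pancreatic β cells. *Snd1* encodes a coactivator that the study examined as a partner of the β cell transcription factor PDX1. The 3 control clones carried Cas9 targeted to intron 2 of *Snd1*, and the 3 *Snd1* KO clones carried Cas9 targeted to exon 2. RNA sequencing gave 1 library per clone, and the labels name no sequencing batch. Each group therefore differs in clonal origin as well as in the targeted site, and the spread within a group is the spread between clones of 1 cell line.

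SREBPs are transcription factors that are made as inactive precursors in the membrane of the endoplasmic reticulum. When membrane sterol is low, SCAP escorts the precursor to the Golgi, where proteases release the active part, which enters the nucleus and activates the genes of sterol and fatty acid synthesis. When sterol is plentiful, INSIG proteins hold SCAP back, and since *Insig1* is itself an SREBP target, its mRNA is often read as a gauge of the pathway. In β cells, these lipids supply the membranes of insulin granules, and acetyl units exported from mitochondria as citrate link glucose metabolism to their synthesis.

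The promoters of *Hmgcs1*, *Cyp51* and *Insig1* are shown first, as *Hmgcs1* and *Cyp51* were the members with the lowest unadjusted p-values and *Insig1* is the feedback gene of the pathway. Each stretch holds the 200 bases from 250 to 51 before the RefSeq start site in build GRCm38.p6, 5′ to 3′ on the strand of the gene, and no annotated exon lies within it. The *Hmgcs1* stretch is chr13:119690101-119690300 on the plus strand, the *Cyp51* stretch is chr5:4104748-4104947 on the minus strand, and the *Insig1* stretch is chr5:28071162-28071361 on the plus strand. Capitals mark matches to 4 motifs searched on both strands, namely an SRE-like motif (TCACNCCAC), the E-box CACGTG, the CCAAT box (CCAAT, or ATTGG on the other strand) and the GC box (GGGCGG, or CCGCCC on the other strand).
Hmgcs1: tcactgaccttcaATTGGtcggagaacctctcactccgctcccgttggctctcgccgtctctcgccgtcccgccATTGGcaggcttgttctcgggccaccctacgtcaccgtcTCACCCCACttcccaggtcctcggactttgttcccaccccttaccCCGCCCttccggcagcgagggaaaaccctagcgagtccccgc
Cyp51: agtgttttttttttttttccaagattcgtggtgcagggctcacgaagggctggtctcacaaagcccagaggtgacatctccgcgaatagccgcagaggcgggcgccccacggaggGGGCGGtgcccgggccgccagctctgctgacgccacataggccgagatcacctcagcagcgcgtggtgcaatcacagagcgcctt
Insig1: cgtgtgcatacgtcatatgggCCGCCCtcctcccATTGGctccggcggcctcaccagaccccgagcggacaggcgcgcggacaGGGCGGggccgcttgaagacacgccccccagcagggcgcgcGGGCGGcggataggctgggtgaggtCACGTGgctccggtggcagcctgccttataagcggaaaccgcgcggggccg

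In the *Hmgcs1* stretch, the SRE-like motif TCACCCCAC began 137 bases before the start site, between CCAAT boxes at 237 and 176 and a GC box at 92. The *Cyp51* stretch held only a GC box, 135 bases before the start site. The *Insig1* stretch held an E-box at 101, a CCAAT box at 216 and GC boxes at 229, 167 and 126. RefSeq promoters of 300 bases, from 250 before to 50 after a start site, were matched for 26 of the 32 genes. *Fdps*, *Fdft1*, *Sqle*, *Stard4*, *Scd1* and *Scd2* had no entry in the table used. Among the 26 genes, the SRE-like motif was found only in *Hmgcs1*, beside 1.44% of all 27025 genes with a promoter. The CCAAT box was found in 22 of the 26 (84.6%), beside 41.1% of all genes, and the GC box in 21 of the 26 (80.8%), beside 38.2%. The E-box was found in the promoters of *Scap*, *Insig1*, *Hsd17b7*, *Sc5d* and *Dhcr7*, which is 5 of the 26 (19.2%) beside 8.09% of all genes. *Cyp51* was among the genes with a CCAAT box in the 300 bases. Only 1 SRE-like pattern was searched, so a gene without a match may still hold another form of the element. A match is a description of letters in this window, and binding of a factor was not measured.

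The targeted gene was examined before the 32 members. *Snd1* mRNA was 113, 119 and 112 TPM in Controls 1 to 3, against 14.7, 57.1 and 19.9 TPM in *Snd1* KO 1 to 3. TPM counts the reads of a gene per unit of its length, scaled to a sum of 1000000 per library. The *Snd1* groups did not overlap, and *Snd1* KO 2 had the highest level among the KO clones. The study chose its KO clones by immunoblot for SND1 protein and reported disrupting indels in them by sequencing. The mRNA level alone therefore does not measure the loss of the protein. *Snd1* itself, with a log2 difference of -2.11 ± 0.452 (SE) and an unadjusted limma p-value of 0.00258, had an adjusted p-value of 0.511 and was not called either. Reads recovered from the TPM values numbered from 25801145 to 32986209 per clone. All 10 β cell markers examined were detected, with a summed level of 47468 to 81214 TPM in control and 51872 to 88710 TPM in *Snd1* KO, most of it *Iapp* and *Ins2*. Single markers of this list went in opposite directions. *Slc30a8*, the zinc transporter of insulin granules, was 215, 191 and 744 TPM in control and 809, 1005 and 779 TPM in *Snd1* KO (log2 difference 1.45, limma adjusted p-value 0.585), and its groups did not overlap. *Slc2a2*, a glucose transporter, was 160, 65.0 and 172 TPM in control and 91.5, 40.5 and 32.8 TPM in *Snd1* KO (log2 difference -1.27, limma adjusted p-value 0.607), with overlap. The acinar and ductal markers summed to at most 1.19 TPM in every clone, with *Cpa1* and *Ptf1a* at 0, and the stromal, endothelial and immune markers to at most 9.44 TPM. The other islet markers summed to 175 to 314 TPM in control and 55.9 to 1103 TPM in *Snd1* KO, nearly all of it *Gcg*, while *Hhex* and *Pyy* were at 0. The hepatocyte list was carried by *Ttr*, which islets also express, and summed to 14122 to 20140 TPM in control and 3036 to 8778 TPM in *Snd1* KO (log2 difference of *Ttr* -1.88, limma adjusted p-value 0.540). *Alb*, the defining marker of that list, was between 0.450 and 2.61 TPM in every clone (log2 difference 0.88, limma adjusted p-value 0.568). The part of these marker levels in the results below was not tested.

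The 32 genes covered a wide range of abundance. Their mean levels over the 6 clones ran from 7.10 TPM for *Tm7sf2* to 3137 TPM for *Scd2*, with a median of 67.3 TPM. In single clones they rested on 283 to 127165 recovered reads. For 28 of the 32 genes, TPM fitted a division by the summed exon length of all annotated transcripts, which lowers the level of genes with many transcripts relative to others and is the same in every clone. For *Acat2*, *Tm7sf2*, *Scd1* and *Scd2* the length behind the TPM was another one, found by a search.

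The 3 most abundant members, *Scd2*, *Acly* and *Scd1*, belong to fatty acid synthesis. *Scd2*, which encodes a stearoyl-CoA desaturase, was 2099, 2649 and 3743 TPM in Controls 1 to 3, against 2579, 3377 and 4375 TPM in *Snd1* KO 1 to 3. *Acly*, which encodes the enzyme that splits citrate into acetyl-CoA, was 990, 1121 and 834 TPM in control and 1012, 909 and 1071 TPM in *Snd1* KO. *Scd1*, the paralog of *Scd2*, was 218, 394 and 624 TPM in control and 450, 578 and 654 TPM in *Snd1* KO. In all 3 genes the groups overlapped, and the controls alone took *Scd1* from the lowest level of the 6 clones to the second highest. The ratio of *Scd2* to *Scd1* ranged from 5.72 to 9.62 between clones. These paralogs are alike in sequence and how reads matching both were counted is not given in the sources used here, so their division is uncertain. With each exonic base counted once, the mean level was 1963 TPM for *Scd2* and 1959 TPM for *Acly*, so the order of these 2 is not settled.

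The 3 least abundant members by the deposited TPM were *Tm7sf2*, *Mvk* and *Hsd17b7*. With each exonic base counted once, *Hsd17b7* was lowest (14.2 TPM), followed by *Tm7sf2* and *Idi1* (16.4 TPM each), and *Mvk* was at 26.5 TPM. *Tm7sf2*, which encodes a sterol reductase, was 5.53, 7.04 and 9.50 TPM in control and 8.79, 5.72 and 6.05 TPM in *Snd1* KO. *Mvk*, mevalonate kinase, was 9.99, 11.7 and 15.3 TPM in control and 13.3, 12.3 and 12.3 TPM in *Snd1* KO. *Hsd17b7*, which encodes a ketosteroid reductase, was 18.1, 17.2 and 11.4 TPM in control and 25.6, 7.63 and 13.0 TPM in *Snd1* KO. *Hsd17b7* thus had both its highest and its lowest level among KO clones, and its ratio of 3.35 between the highest and the lowest clone was the largest of the 32 genes. The exons of *Tm7sf2* share 12.1% of their bases with *Vps51*, and strand use in the counting is not given in the sources used here.

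**Figure D1:**
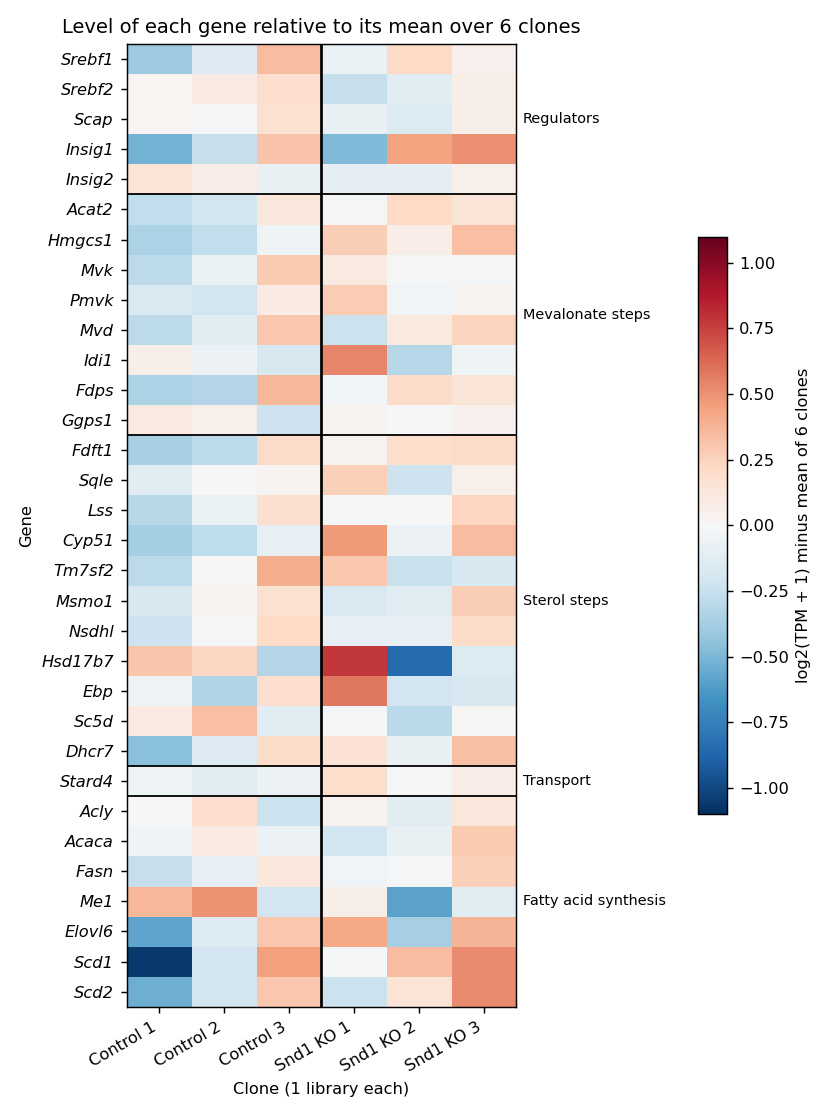
Level of each of the 32 genes (rows, ordered by role) in each clone (columns) as log2(TPM + 1) minus the mean of that gene over the 6 clones, with red above and blue below the mean. Control 1 is the lowest clone for 18 genes, and *Snd1* KO 3 holds the highest level of 10 genes and Control 3 and *Snd1* KO 1 of 8 each.

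To address whether sterol and fatty acid synthesis differed with *Snd1* targeting, log2(TPM + 1) was compared between 3 *Snd1* KO and 3 control clones with limma across all 17823 genes, with Benjamini-Hochberg adjustment. None of the 32 genes passed an adjusted p-value under 0.05 with a change of at least 2-fold, where 1 gene in all (0.00561%) did. The study itself, with cutoffs of the same kind, reported numerous genes higher or lower in its KO clones and checked several by qPCR. Why this limma fit called fewer genes was not tested. It did not call the targeted gene *Snd1* either, so its count does not measure how many genes changed in these clones. The adjusted p-values of the 32 genes ran from 0.568 for *Hmgcs1* to 0.995 for *Acaca*. At an unadjusted p-value under 0.05, *Hmgcs1* and *Cyp51* were higher in *Snd1* KO, which is 2 of 32 (6.25% of the list) beside 5.63% of all genes tested, and 0 of 32 were lower, beside 2.33% of all genes. The groups did not overlap, with *Snd1* KO higher, for *Hmgcs1*, *Cyp51* and *Stard4*, which is 3 of 32 beside 9.69% of all genes, and 0 of 32 were lower without overlap, beside 4.03%. These shares are near those of all genes. The fitted difference was positive for 24 of the 32 genes (75.0%) and negative for 8, where 57.3% of all genes tested were positive. Between 19 of the 32 (without Control 1) and 27 (without *Snd1* KO 2) were positive under the alternatives tried. The median difference was 0.12 on the log2(TPM + 1) scale beside 0.04 over all genes tested. Without Control 1 the order was the opposite, with a median of 0.05 for the 32 genes and 0.08 for all genes, whereas the 32 genes had the higher median under the other alternatives. In bulk RNA, a change in the number of cells that express a gene and a change in RNA per cell cannot be told apart.

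Among the 5 regulators, no gene separated the groups. *Srebf2* encodes the SREBP with most influence on cholesterol synthesis, and was 76.0, 79.4 and 85.3 TPM in control and 62.5, 68.9 and 78.4 TPM in *Snd1* KO. Its KO to control difference was -0.20 ± 0.118 (SE) on the log2 scale, with a limma adjusted p-value of 0.679 and an overlap of *Snd1* KO 3 with the control range. *Scap* was 40.6, 39.6 and 45.0 TPM in control and 37.7, 36.0 and 41.8 TPM in *Snd1* KO, a log2 difference of -0.11 ± 0.111 (SE). For both genes, Control 3 was the highest clone and *Snd1* KO 3 the highest KO clone. *Srebf1*, which encodes the SREBP with most influence on fatty acid synthesis, was 40.5, 48.6 and 68.3 TPM in control and 50.9, 62.8 and 55.4 TPM in *Snd1* KO. The 3 KO values of *Srebf1* lay within the control range, and the log2 difference was 0.13 ± 0.201 (SE), which turned to -0.04 without Control 1 and was 0.33 without Control 3. When single clones were left out, the log2 difference of *Srebf2* lay between -0.28 (*Snd1* KO 3 left out) and -0.12 (*Snd1* KO 1 left out). That of *Scap* lay between -0.17 (*Snd1* KO 3 left out) and -0.06 (Control 3 left out), with -0.07 for *Snd1* KO 2 left out, and it turned to 0.015 with weights by clone quality.

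*Insig1* and *Insig2* differed in how much they varied. *Insig1* was 276, 332 and 495 TPM in control and 284, 541 and 562 TPM in *Snd1* KO. *Snd1* KO 1 was at the level of Control 1, whereas *Snd1* KO 2 and 3 were above all 3 controls, so the groups overlapped. The mean was 368 ± 114 TPM (SD, n = 3) in the controls, against 462 ± 155 TPM (SD, n = 3) in *Snd1* KO, with a log2 difference of 0.31 ± 0.326 (SE) and a limma adjusted p-value of 0.813. The log2 difference was 0.12 without Control 1 and 0.63 without *Snd1* KO 1. *Insig2*, the isoform gene less tied to SREBP activity, was 37.3, 35.2 and 31.6 TPM in control and 31.2, 31.1 and 34.7 TPM in *Snd1* KO. It was the steadiest of the 32 genes, with a ratio of 1.20 between the highest and the lowest clone against 2.04 for *Insig1*. Its log2 difference was -0.10 ± 0.113 (SE), and lay between -0.05 (without Control 1) and -0.16 (without Control 3) when single clones were left out.

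The 8 mevalonate genes, which carry acetyl-CoA to the isoprenoid diphosphates, all had a positive difference, with a median of 0.15 on the log2 scale, which was 0.26 without Control 3. Of these, *Mvk* and *Mvd* turned negative without Control 1, *Mvd* also without *Snd1* KO 3, *Ggps1* without Control 3 and *Idi1* without *Snd1* KO 1, and *Idi1* and *Ggps1* also with weights by clone quality. *Hmgcs1* (ENSMUSG00000093930, chr13:119690379-119708260), which encodes the cytosolic HMG-CoA synthase, was 82.6, 87.2 and 102 TPM in control and 128, 111 and 133 TPM in *Snd1* KO. All 3 KO clones were above all 3 controls, by 9.0% between the nearest pair, *Snd1* KO 2 and Control 3. The mean was 90.7 ± 10.2 TPM (SD, n = 3) in the controls, against 124 ± 11.5 TPM (SD, n = 3) in *Snd1* KO, a log2 difference of 0.45 ± 0.126 (SE), or 1.37-fold. The unadjusted limma p-value was 0.00962 and the adjusted one 0.568, and the exact two-sided permutation test gave p = 0.1, the smallest that 3 clones against 3 allow. The exons of *Hmgcs1* share 12.1% of their bases with *Gm48342* on the other strand.

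The other mevalonate genes had overlapping groups. *Acat2*, the cytosolic thiolase that joins acetyl units, differed by 0.23 ± 0.140 (SE) on the log2 scale, with a limma adjusted p-value of 0.686. *Fdps*, farnesyl diphosphate synthase, differed by 0.20 ± 0.216 (SE) and *Pmvk*, phosphomevalonate kinase, by 0.18 ± 0.134 (SE). Without Control 1 the log2 difference of *Fdps* was 0.08 and that of *Acat2* 0.16, and without *Snd1* KO 1 that of *Pmvk* was 0.09. Without Control 3 all of them were larger, at 0.438 for *Fdps*, 0.353 for *Acat2* and 0.275 for *Pmvk*. *Fdps* had its highest level in Control 3, at 23.0 TPM, so that the group means differed although the top clone was a control. *Fdps* also shares 26.7% of its exonic bases with *Gm43738*. The differences of *Idi1*, *Mvd*, *Mvk* and *Ggps1*, which encode an isomerase, a decarboxylase, a kinase and geranylgeranyl diphosphate synthase, were between 0.05 and 0.11 on the log2 scale. *Idi1* was set apart by *Snd1* KO 1, at 22.7 TPM beside 12.2 to 16.1 TPM in the other 5 clones.

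The 11 sterol genes, which build squalene and turn it into cholesterol, had positive differences in 7 and negative ones in 4, with a median of 0.06 on the log2 scale. The median lay between 0.01 (without Control 2) and 0.19 (without *Snd1* KO 2) when single clones were left out. With weights by clone quality it was 0.227. The sign of *Sqle*, *Tm7sf2*, *Msmo1*, *Nsdhl*, *Hsd17b7* and *Ebp* turned under at least 1 alternative. *Cyp51* (ENSMUSG00000001467, chr5:4081145-4104746), lanosterol demethylase, was 140, 150 and 171 TPM in control and 252, 174 and 231 TPM in *Snd1* KO. All 3 KO clones were above all 3 controls, but *Snd1* KO 2 was only 1.39% above Control 3. The mean was 154 ± 15.8 TPM (SD, n = 3) in the controls, against 219 ± 40.6 TPM (SD, n = 3) in *Snd1* KO, a log2 difference of 0.49 ± 0.165 (SE), or 1.41-fold. The unadjusted limma p-value was 0.0215 and the adjusted one 0.585, with an exact two-sided permutation p = 0.1.

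*Fdft1*, squalene synthase, and *Dhcr7*, the reductase of the last step, had the next largest differences of the sterol genes, 0.30 ± 0.170 (SE) and 0.27 ± 0.197 (SE) on the log2 scale, with limma adjusted p-values of 0.663 and 0.738. In both genes Control 1 was the lowest clone and *Snd1* KO 3 the highest, and Control 3 was the second highest. Without Control 1 the log2 differences were 0.19 for *Fdft1*, 0.10 for *Dhcr7* and 0.02 for *Lss*, and without Control 3 they were 0.478, 0.435 and 0.259. The exons of *Fdft1* share 18.3% of their bases with *Ctsb*. *Lss* and *Ebp*, lanosterol synthase and a sterol isomerase, differed by 0.14 and 0.13 on the log2 scale. *Sqle*, squalene epoxidase, differed by 0.06, and *Nsdhl* and *Msmo1*, which act in the removal of methyl groups, by 0.01 and -0.02. *Ebp* resembled *Idi1* in that *Snd1* KO 1 stood above the rest, at 107 TPM beside 56.5 to 80.8 TPM in the other 5 clones. The desaturase gene *Sc5d* had a difference of -0.20 ± 0.154 (SE), *Hsd17b7* of -0.14 ± 0.409 (SE) and *Tm7sf2* of -0.08 ± 0.243 (SE). That of *Sc5d* was -0.09 without Control 2, -0.10 without *Snd1* KO 2 and -0.32 without Control 3. In the limma fit of all 6 clones, none of these differences had an unadjusted p-value under 0.05.

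*Stard4*, which encodes a cytosolic cholesterol carrier, was 91.2, 86.8 and 90.8 TPM in control and 109, 93.7 and 99.9 TPM in *Snd1* KO. The groups did not overlap, with the nearest clones, *Snd1* KO 2 and Control 1, 2.72% apart. Its log2 difference was 0.17 ± 0.0997 (SE), or 0.11 without *Snd1* KO 1, with an unadjusted limma p-value of 0.139, an adjusted one of 0.680 and an exact two-sided permutation p = 0.1.

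**Figure D2:**
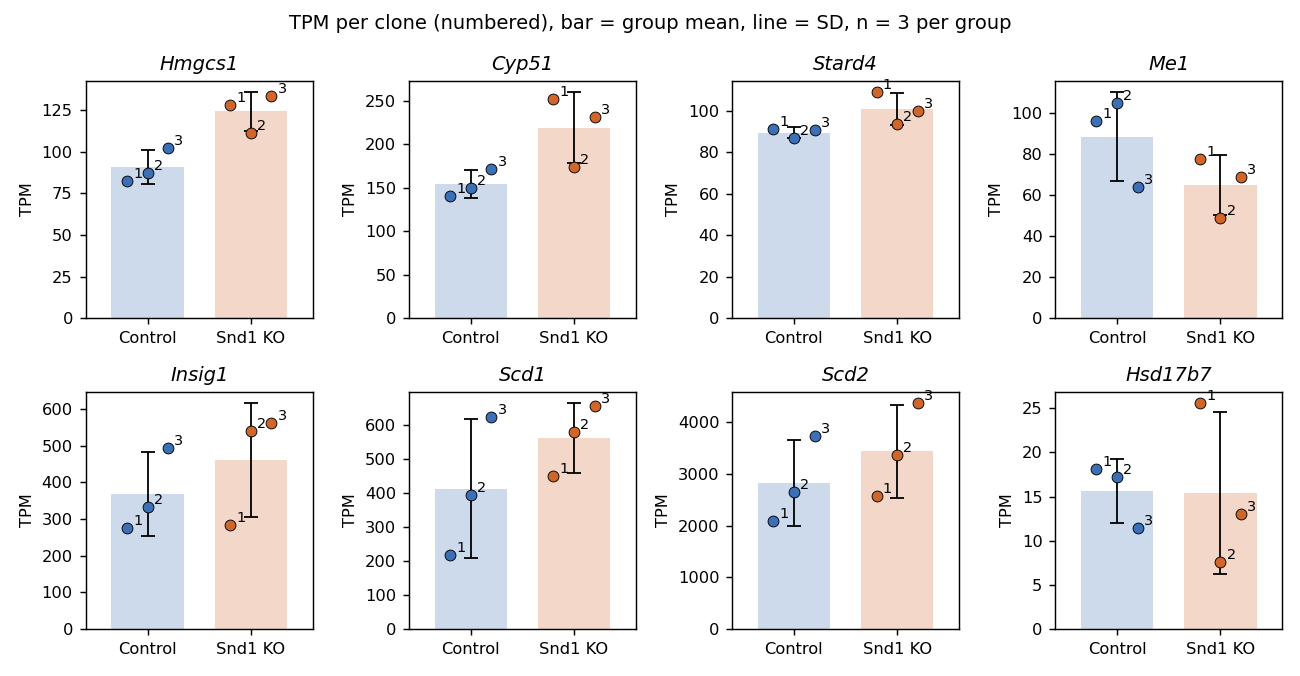
TPM of 8 genes in each clone (numbered points), with bars at the group mean and lines for the SD (n = 3 per group) and axes that start at 0. *Hmgcs1*, *Cyp51* and *Stard4* do not overlap between groups, whereas *Me1*, *Insig1*, *Scd1*, *Scd2* and *Hsd17b7* do, with Control 3 of *Scd1* at 624 TPM above *Snd1* KO 1 and 2.

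Of the 7 fatty acid genes, 6 had a positive difference and 1 a negative one, with a median of 0.15 on the log2 scale. The median was 0.06 without Control 1 or *Snd1* KO 3, 0.25 without Control 3 and 0.35 with weights by clone quality. *Scd1* had the largest difference of all 32 genes, 0.55 ± 0.373 (SE), with a mean of 412 ± 204 TPM (SD, n = 3) in the controls, against 561 ± 103 TPM (SD, n = 3) in *Snd1* KO. Its limma adjusted p-value was 0.713. The size of this difference rested on Control 1, as the log2 difference was 0.16 without that clone and 0.92 without Control 3. *Scd2* differed by 0.29 ± 0.294 (SE) and *Elovl6*, which encodes an elongase of long-chain fatty acids, by 0.29 ± 0.292 (SE). *Fasn*, fatty acid synthase, differed by 0.15 ± 0.139 (SE), with a limma adjusted p-value of 0.779. Without Control 1 the log2 differences were 0.10 for *Scd2*, 0.07 for *Elovl6* and 0.06 for *Fasn*, and without *Snd1* KO 3 they were 0.10, 0.17 and 0.06. Without *Snd1* KO 1 that of *Elovl6* was 0.15. The genes for the supply of acetyl-CoA and malonyl-CoA had differences close to 0, with 0.03 ± 0.156 (SE) for *Acly* and 0.01 ± 0.156 (SE) for *Acaca*, acetyl-CoA carboxylase, and both turned negative with median-ratio scaling.

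*Me1*, malic enzyme, which supplies NADPH for fatty acid synthesis, had the most negative difference of the 32 genes. It was 96.2, 105 and 64.0 TPM in control and 77.7, 49.0 and 68.6 TPM in *Snd1* KO. The mean was 88.4 ± 21.6 TPM (SD, n = 3) in the controls, against 65.1 ± 14.6 TPM (SD, n = 3) in *Snd1* KO, a log2 difference of -0.43 ± 0.242 (SE) with a limma adjusted p-value of 0.660. Control 3 lay below *Snd1* KO 1 and *Snd1* KO 3, so the groups overlapped. The log2 difference was -0.24 without *Snd1* KO 2 and -0.65 without Control 3, and without *Snd1* KO 1 it was -0.57 for both *Me1* and *Hsd17b7*.

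**Figure D3:**
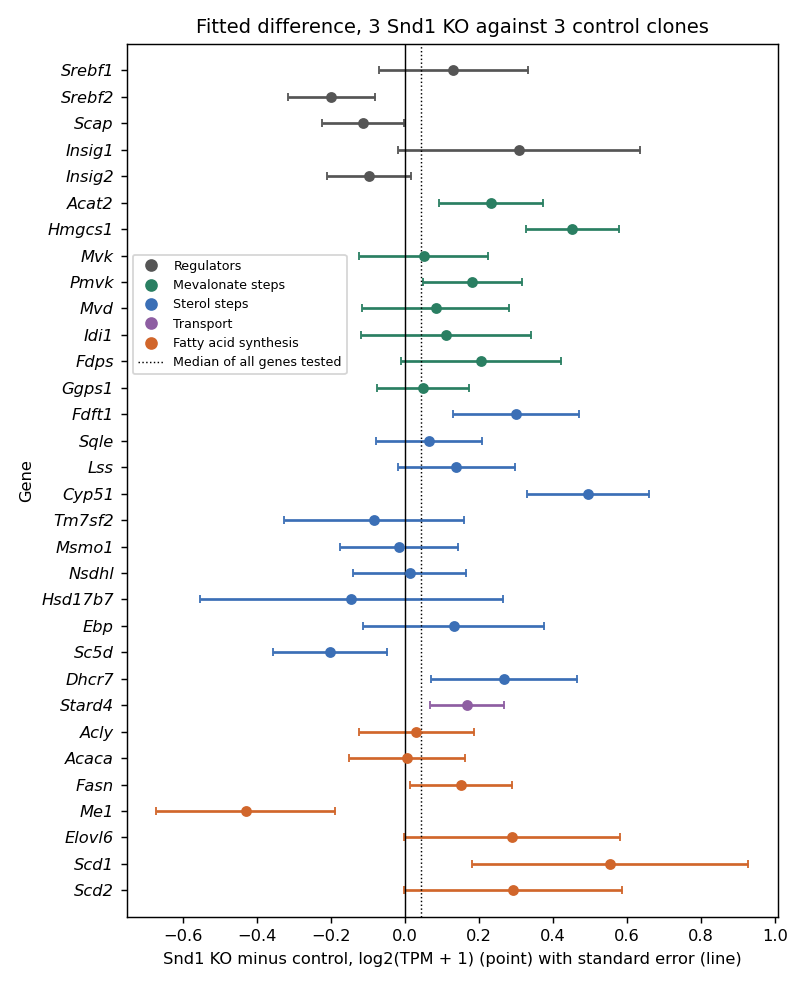
Fitted difference, *Snd1* KO minus control, on the log2(TPM + 1) scale (points) with its standard error (lines) for each of the 32 genes, colored by role, with a dotted line at the median of all genes tested, 0.04. *Hmgcs1* and *Cyp51* lie farthest from 0 relative to their errors, and all adjusted p-values are 0.568 or more.

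Clones of 1 group differed in these genes. The median SD of log2(TPM + 1) between clones was 0.226 in control and 0.170 in *Snd1* KO for the 32 genes, beside 0.178 and 0.194 for the 11368 genes that averaged 5 TPM or more. The SD was larger in control for 19 of the 32 genes, and the medians for the regulators (0.117 and 0.150) and the sterol genes (0.240 and 0.244) were not larger in control. The difference in spread between the groups was not tested. The fatty acid genes varied most, with a median SD of 0.377 in control and 0.274 in *Snd1* KO, and the largest single SDs were those of *Scd1* in control (0.758) and *Hsd17b7* in *Snd1* KO (0.814). The ratio between the highest and lowest clone had a median of 1.52 over the 32 genes, was under 1.5 for 14 of them and above 2 for 6.

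Control 1 was the lowest of the 6 clones for 18 of the 32 genes, where this held for 12.0% of all genes tested. Control 3 was above both other controls for 23 of the 32, where this held for 29.7% of all genes tested, and below both for 8 of the 32, where this held for 52.1%. *Snd1* KO 3 was above all 3 controls for 15 of the 32 genes, where this held for 32.4% of all genes, and was below all 3 for 0 of the 32, beside 17.9% of all genes. *Snd1* KO 1 was above all controls for 9 genes and *Snd1* KO 2 for 5, beside 31.6% and 37.1% of all genes. *Snd1* KO 2 was below all controls for 9 of the 32 genes and *Snd1* KO 1 for 4, where this held for 21.7% and 24.4% of all genes. In these genes Control 3 was nearest to *Snd1* KO 3, with a median absolute log2 difference of 0.133, and differed from Control 1 by 0.383, while Control 1 and Control 2 differed by 0.150. Over those 11368 genes, the same pairs differed by 0.236, 0.275 and 0.0934.

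Among the controls, Control 1 was the lowest for 20 of the 32 genes, where this held for 17.1% of all genes tested, and Control 3 was the highest for 23. For this reason the comparison was also read with other weights. Without Control 3, the limma fit gave 7 genes higher and 1 lower at an unadjusted p-value under 0.05, beside 6.99% and 6.86% of all genes tested. The 7 were *Cyp51*, *Fdft1*, *Acat2*, *Scd1*, *Dhcr7*, *Fdps* and *Hmgcs1*, the 1 lower was *Me1*, and their adjusted p-values were 0.154 or more. Leaving out this clone lowers the control mean of the 23 genes for which it was the highest control, and raises that of the 8 for which it was the lowest, *Me1* among them. Without Control 1 only 1 of the 32 genes had an unadjusted p-value under 0.05, and leaving out any of the other 4 clones left 1 or 2. With clone quality weights, which limma estimates from how far each clone lies from its group, Control 3 and *Snd1* KO 1 had weights of 0.279 and 0.286, and *Snd1* KO 3 had a weight of 3.91. In that fit, 5 of the 32 genes were higher at an adjusted p-value under 0.05, beside 7.10% of all genes tested, and 1 was lower, beside 5.04%. These were *Hmgcs1* (log2 difference 0.59, adjusted p-value 0.0216), *Cyp51* (0.60, 0.0238), *Fdft1* (0.49, 0.0262), *Acat2* (0.35, 0.0374) and *Insig1* (0.76, 0.0407), with *Me1* (-0.57, 0.0464) lower. *Snd1* KO 3, with the most weight, held the highest level of 10 of the 32 genes. Control 1, the lowest clone for 18 of them, and Control 2 had weights of 1.87 and 2.54, and *Snd1* KO 2 had 0.672, so this fit mainly set Control 1 and Control 2 against *Snd1* KO 3. Over the alternatives tried, the log2 difference of *Hmgcs1* ranged from 0.39 to 0.59 with adjusted p-values from 0.0216 to 0.983, and that of *Cyp51* from 0.38 to 0.65 with adjusted p-values from 0.0238 to 0.983.

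The genes co-varied across clones in part. Over the 6 clones, which share a cell line and include both groups, 18 of the 32 genes had a Pearson r above 0.5 with the mean of the other members and 6 had an r below 0. *Dhcr7* (0.975), *Elovl6* (0.942), *Fasn* (0.922) and *Lss* (0.918) followed the others most closely, whereas *Ggps1* (-0.503), *Insig2* (-0.468) and *Me1* (-0.376) ran opposite. Of the 496 pairs of genes, 174 (35.1%) had an r above 0.5 and 61 (12.3%) below -0.5, with a median of 0.269. Among all pairs of the 11368 genes that averaged 5 TPM or more, 24.0% had an r above 0.5 and 17.8% below -0.5.

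Some pairs are given as a description, since high r values are common over 6 clones. The highest r values of all pairs were those of *Lss* with *Fasn* (0.984) and *Acat2* with *Fdft1* (0.978). The pattern most like *Insig1* was that of *Mvd* (r = 0.948) and *Scd2* (0.937), which were low in Control 1 and high in *Snd1* KO 3. *Hsd17b7* (-0.858) and *Me1* (-0.782) were most unlike *Insig1*. The pattern most like *Hmgcs1* was that of *Cyp51* (0.953), *Dhcr7* (0.841) and *Stard4* (0.823), with *Snd1* KO 1 among the high clones. *Hsd17b7* and *Idi1* (0.915) shared their highest level in *Snd1* KO 1 and their lowest in *Snd1* KO 2. *Iapp* and *Ins1* encode β cell hormones and are no members of the list. *Iapp* was 22390, 25567 and 49144 TPM in Controls 1 to 3, against 29417, 50246 and 42914 TPM in *Snd1* KO 1 to 3. *Ins1* was 2429, 4086 and 6033 TPM in control and 2059, 11945 and 8219 TPM in *Snd1* KO. Both hormones were low in the same 3 clones as *Insig1*, namely Control 1, Control 2 and *Snd1* KO 1, with r = 0.925 for *Iapp* and 0.951 for *Ins1* against *Insig1*. *Slc30a8*, whose levels are given above, had r = 0.847 with *Hmgcs1* and 0.950 with *Fdft1*. Other markers of the β cell list went otherwise. *Mafa*, a transcription factor, was high in those 3 clones, with 980, 861 and 545 TPM in control and 1045, 598 and 419 TPM in *Snd1* KO. *Ins2* was lowest in *Snd1* KO 3, at 11194 TPM, where *Insig1* was highest, and *Slc2a2* had its highest levels in Control 3 and Control 1. These markers were chosen after their values were seen, and their part in the patterns was not tested.

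**Figure D4:**
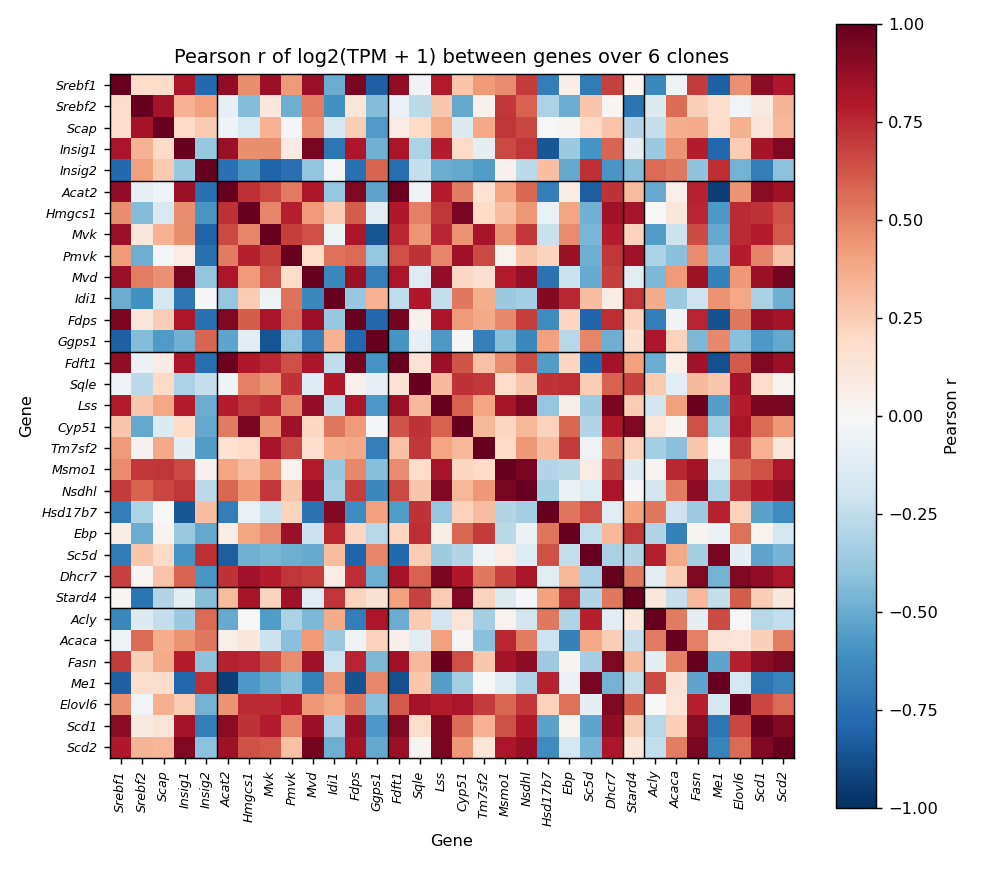
Pearson r of log2(TPM + 1) over the 6 clones between each pair of the 32 genes, in the order of their roles, with red for positive and blue for negative r. *Hmgcs1* and *Cyp51* pair at 0.953 and *Insig1* and *Mvd* at 0.948, while *Insig1* and *Hsd17b7* pair at -0.858.

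Other genes of the pathway were read from the same limma fit, in lists chosen from textbook knowledge. No gene of these lists passed an adjusted p-value under 0.05. Of 9 genes that process or hold back SREBPs, 0 had an unadjusted p-value under 0.05 in either direction. Of 7 tested genes for sterol export and storage, 0 were higher and 1 was lower at an unadjusted p-value under 0.05, beside 5.63% and 2.33% of all genes tested. This was *Soat1*, which esterifies cholesterol for storage, at 102 ± 18.4 TPM (SD, n = 3) in the controls, against 76.5 ± 4.12 TPM (SD, n = 3) in *Snd1* KO (log2 difference -0.39, limma adjusted p-value 0.607). Its groups overlapped through Control 3, at 80.3 TPM beside 81.2 TPM in *Snd1* KO 1. Of 15 other tested genes of fatty acid synthesis, 0 were lower and 1 was higher beside the same shares of all genes, *Acsl3*, which activates long-chain fatty acids. It was 16.9, 18.8 and 18.1 TPM in control and 26.3, 24.9 and 24.0 TPM in *Snd1* KO, with groups that did not overlap, a log2 difference of 0.46 ± 0.110 (SE) and a limma adjusted p-value of 0.544. *Soat1* and *Acsl3* were chosen after their values were seen.

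The lists that use or feed the same intermediates held no gene with an unadjusted p-value under 0.05 in either direction. These were 11 genes that use isoprenoids for protein lipids, dolichol and ubiquinone, 7 genes that supply NADPH and 9 tested genes of fatty acid oxidation. Their median log2 differences were 0.01, 0.05 and -0.02. *Nr1h3*, *Acacb* and *Ppara* had means under 0.5 TPM and were not tested.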

How the data were processed

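RNA from 3 control and 3 *Snd1* KO MIN6 clones was sequenced, with 1 library per clone, and clones were grouped by their genotype labels. RNA was extracted from cultured cells, and libraries were made from cDNA with a Nextera XT kit. The authors deposited TPM values per Ensembl gene, after processing on the Genialis platform. The submitters' processing notes name FastQC, Trimmomatic, HISAT2, HTSeq, DESeq2 and the build mm10, without roles or versions. The annotation, the strand setting and the treatment of reads that match several genes are not given in the sources used here.

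The files list 53801 mouse genes, of which 53706 matched GENCODE M21, with 92 ERCC and 7 SIRV controls, which were left out. TPM multiplied by the summed exon length of all transcripts gave whole reads in all 6 clones, within 0.01 of a whole number, for 94.3% of the 30973 genes above 0, and 99.8% had recovered reads once other lengths were searched. The lengths of *Acat2*, *Tm7sf2*, *Scd1* and *Scd2* were among those searched. Recovered reads gave an estimate of the depth, 25801145 to 32986209 reads per clone, which bears on counting error only. The study gives a lower approximate number of reads per library, from paired-end sequencing. Whether both reads of a pair were counted is not given in the sources used here.

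log2(TPM + 1) of the 17823 genes that averaged 0.5 TPM or more was fitted in limma 3.58.1 under R 4.3.3 (eBayes, trend on the mean), and p-values were adjusted by Benjamini-Hochberg over these genes. A call needed a 2-fold change or more together with an adjusted p-value under 0.05. Fold changes on this scale understate changes of low genes. Exact two-sided permutation tests compared single genes. The fit was also run on simulated counts with 200 changed genes. These were drawn for each gene on its own, without differences shared within a clone other than depth. That run therefore says little about the comparison of these clones. Python 3.11.15 with numpy 2.4.6, pandas 2.3.3, scipy 1.17.1 and matplotlib 3.10.9 served for the other values and the plots. Promoters were taken from RefSeq.

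The 32 members and all gene lists were chosen with earlier results of these data known. Values in every clone are given for members with an unadjusted p-value under 0.05 or groups that do not overlap, for the 5 regulators and for the 3 members with the highest and the 3 with the lowest mean TPM, and *Me1* was added after its values were seen. Genes of other lists were to be named where they reached 1.5-fold and an unadjusted p-value under 0.05, which no gene of the other lipid lists did. In the marker lists, *Slc30a8*, *Slc2a2*, *Ttr* and *Alb* did.

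The alternatives were a pseudocount of 0.1, a filter at 5 TPM or none, normalization by quantiles or by the median ratio, rescaling without *Ins1*, *Ins2* and mitochondrial genes, limma without its trend or with a robust one, weights by clone quality, a replicate block, each clone left out in turn, voom on recovered reads, a threshold of 0.1 for the adjusted p-value, no fold threshold, and levels with each exonic base counted once.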

Additional observations from a re-analysis of the deposited data

How the results depend on the processing

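Of 544 comparisons of a single member with its value under an alternative, 511 kept their direction, and 18 of the 32 members kept it under all 17 alternatives tried, *Hmgcs1*, *Cyp51* and *Stard4* among them. The median log2 difference of the members stayed between 0.05 (without Control 1) and 0.23 (without Control 3). The 1 gene called by limma in all became 0 without a filter, 0 without a trend, 0 with voom on recovered reads and 0 with the replicate block. In the limma fit as reported, 1003 higher and 416 lower genes had an unadjusted p-value under 0.05. The number of genes called became 895 with clone quality weights, 2 at an adjusted p-value under 0.1, and 0 to 1 when each clone was left out in turn. Members with an unadjusted p-value under 0.05 numbered 2 as reported, 1 with median-ratio scaling, 16 with clone quality weights (15 higher and 1 lower, beside 18.2% and 14.4% of all genes in that fit) and 1 to 8 when each clone was left out, with the 8 reached without Control 3. The median of the members' mean levels was 67.3 TPM as deposited and 71.8 TPM with each exonic base counted once.

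Clones with the same number correlated at 0.115, -0.199 and -0.108 in their deviations from the group means over 11368 genes, so the numbers name clones and do not pair them. With the replicate block, 2 members still had an unadjusted p-value under 0.05 and the median log2 difference was 0.12.

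Reversed log2 differences were all of members with adjusted p-values of 0.228 or more. They were -0.0043 for *Nsdhl* and -0.032 for *Acaca* with quantile normalization, -0.0303 for *Nsdhl*, -0.0127 for *Acly* and -0.0358 for *Acaca* with median-ratio scaling, 0.0357 for *Msmo1* with rescaling, and -0.0032 for *Acaca* with voom. With clone quality weights they were 0.015 for *Scap*, -0.0409 for *Idi1*, -0.0223 for *Ggps1*, 0.24 for *Msmo1* and -0.00599 for *Acly*. When each clone was left out, the range was -0.0361 to 0.334 for *Srebf1*, -0.0792 to 0.205 for *Mvk*, -0.042 to 0.25 for *Mvd*, -0.128 to 0.296 for *Idi1*, -0.0554 to 0.109 for *Ggps1*, -0.0522 to 0.192 for *Sqle*, -0.253 to 0.0947 for *Tm7sf2*, -0.156 to 0.0658 for *Msmo1*, -0.0984 to 0.125 for *Nsdhl*, -0.57 to 0.24 for *Hsd17b7*, -0.126 to 0.267 for *Ebp*, -0.0815 to 0.132 for *Acly* and -0.135 to 0.105 for *Acaca*. The cause of these reversals was not tested.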

Other observations

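Some other genes tied to lipid synthesis varied between clones in ways the comparison above did not cover. *Mlxipl*, which encodes the glucose-responsive factor ChREBP that activates lipogenic genes, had the largest log2 difference of the wider lipid lists, 0.72 ± 0.351 (SE), with a limma adjusted p-value of 0.609. It was 55.3, 43.1 and 65.3 TPM in Controls 1 to 3, against 52.0, 136 and 101 TPM in *Snd1* KO 1 to 3, so *Snd1* KO 2 and 3 were above all controls while *Snd1* KO 1 was not. *Elovl5*, an elongase of polyunsaturated fatty acids, was 360, 359 and 374 TPM in control and 305, 483 and 609 TPM in *Snd1* KO, with the same clones high and a limma adjusted p-value of 0.758. *Cpt1a*, which admits fatty acids to mitochondria for oxidation, was 37.0, 41.6 and 43.5 TPM in control and 68.8, 26.0 and 29.5 TPM in *Snd1* KO, with only *Snd1* KO 1 above the controls. These 3 genes were chosen after their values were seen.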
